A study of Mus musculus with 12 samples.

Results

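The genes of glycolysis, lactate handling, pyruvate entry and the hypoxia response were examined in 12 single cultured cardiac progenitor cells (CPCs), as a list of 41 genes of the 21729 in the count table. A count in at least 1 cell was present for 14462 genes. The list was set by gene name, with no measured value in its rule. It holds 2 glucose transporters, 15 enzymes of the 10 glycolytic steps, 2 enzymes of fructose 2,6-bisphosphate, 4 genes of lactate, 4 pyruvate dehydrogenase kinases, 4 genes of the pyruvate dehydrogenase complex, 4 of hypoxia sensing and 6 targets of hypoxia-inducible factor (HIF). The cells were c-Kit+ and lineage-negative when sorted with magnetic beads from the non-myocyte fraction of hearts of female FVB mice of 12 weeks. The labels name no transgene or treatment for them. They were kept in ambient air on gelatin in a medium with serum and growth factors, and were sequenced after 5 passages. Messenger RNA of each cell was copied with the Smart-Seq v4 kit. Cells from 2 hearts were pooled and the labels tie no cell to an animal or dish, so the 12 cells are 1 group that counts as 1 sample, and no test between cells or conditions was made. Means below are therefore given with the SD over cells, and every correlation is a description over 12 cells.

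Cell 1 had the lowest total, 3453708 counts, and cell 12 the highest, 5690184. Values are given as CPM, the counts of a gene in every 1000000 counts of the cell, so that 3 counts correspond to 0.527 to 0.869 CPM. Between 10022 and 11950 genes were detected per cell, and mitochondrial genes took 1.02% to 2.77% of counts. Kit itself, the gene of the sorted receptor, had counts in cell 10 only, at 21 counts. That cell also stood apart by its endothelial markers, whose summed level was 9810 CPM against at most 58.5 CPM in the other cells, although Cldn5 and Vwf were at 0 in every cell. Of 10 fibroblast markers, 4 had counts in all cells, Thy1 in 8 and the other 5 in 1 to 3 cells. Their summed level lay between 189 CPM (cell 10, mainly Pdgfra at 175 CPM) and 6333 CPM (cell 12, mainly the collagen genes Col1a1 and Col1a2), and 7 of 10 cardiomyocyte markers were at 0 throughout. The Y-linked genes Ddx3y (15 to 997 counts) and Eif2s3y (22 to 610 counts) were counted in all 12 cells, although the isolation protocol names female mice.

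Glycolysis splits glucose into pyruvate in the cytosol. Pyruvate can then enter mitochondria through the pyruvate dehydrogenase complex, which is switched off by its kinases, or be reduced to lactate, which leaves the cell through monocarboxylate transporters. When oxygen is low, the alpha subunits of HIF are no longer hydroxylated and degraded, and HIF increases transcription of glucose transporters, most glycolytic enzymes, Ldha, Pdk1 and genes such as Bnip3. Cultured cells that divide commonly run glycolysis even where oxygen is plentiful, and many of these genes have several isozymes whose use differs between tissues.

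Most of the 41 genes were present in each cell. Counts were found in all 12 cells for 33 members, or 80.5%, beside 53.1% of all genes with a count, and single cells held 35 (cell 7) to 40 (cells 4 and 10) of them. The 8 others were Slc2a3, Aldoc, Slc16a3, Pdk4, Epas1, Egln3, Car9 and Ndrg1. Together the members took a median of 1.35% of the counts of a cell, from 0.716% in cell 3 to 2.43% in cell 12, with cell 8 also at 2.43%. Levels of different members were compared only per kilobase of exon. On that scale the highest medians were those of Aldoa (715 CPM per kilobase), Ldha (605), Gapdh (526), Tpi1 (360), Pkm (304), Eno1 (259) and Pgk1 (196). These neighbours had ranges over cells that overlapped each other, and with the length of the longest transcript in place of all exons Eno1 moved from rank 6 to rank 3, while Aldoa and Ldha remained first and second. Below them followed Pgam1 at 98.8, P4ha1 at 90.1 and Gpi1 at 74.1 CPM per kilobase.

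**Figure D1:**
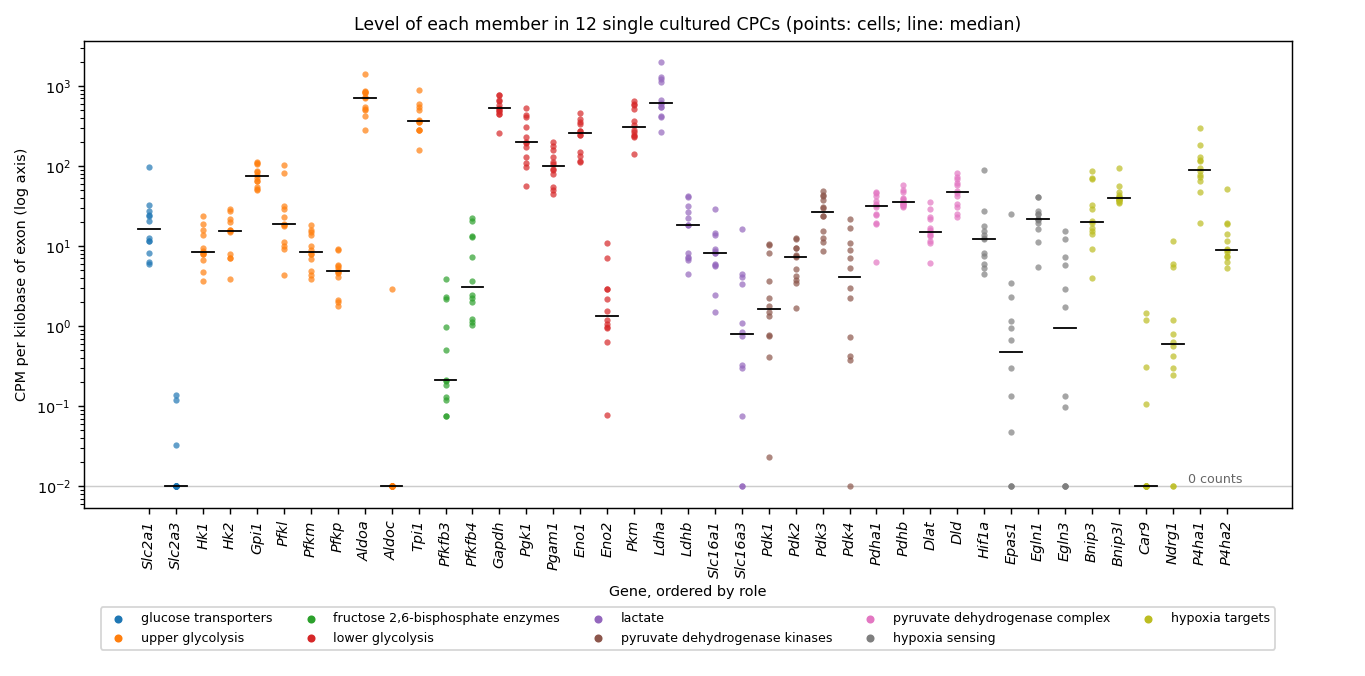
Level of each of the 41 genes, ordered by role, in CPM per kilobase of exon on a log axis. Points are the 12 cells, lines are medians, colours are roles, and cells with 0 counts lie on the grey line. Aldoa, Ldha, Gapdh, Tpi1 and Pkm have the highest medians, while Slc2a3, Aldoc and Car9 have medians of 0.

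Of the 2 glucose transporters, 1 took nearly all reads. Slc2a1, the gene of the widely expressed transporter GLUT1 (chromosome 4, 119108711 to 119137983 in mm10, as all positions here), was found in every cell at a lowest level of 20.9 CPM in cell 5, a median of 57.9 and a highest of 342 in cell 12. Cell 12 stood alone, since the next cell, cell 9, had 114 CPM. Slc2a3, the gene of the high-affinity transporter GLUT3, gave 3, 4 and 1 counts in cells 1, 2 and 4 and none elsewhere. Its share of the pair per kilobase therefore did not pass 1.64% in any cell.

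The first glycolytic steps showed mixed isozymes. Hexokinases trap glucose as glucose 6-phosphate, and Hk1 (92.1 ± 51.4 CPM, SD over 12 cells) and Hk2 (92.4 ± 47.9) were both found in all cells. The share of Hk1 per kilobase had a median of 38.6%, but ran from 18.1% in cell 7 to 67.4% in cell 3, and exceeded 50% in 5 cells. Which of the pair led over cells turned with the length used, because the median for Hk1 was 53.6% with the longest transcript. Exact binomial intervals of the 2 extreme cells, 15.9% to 20.5% and 61.8% to 72.7%, lay far apart, although such intervals cover counting error only and the libraries held no molecular identifiers. Gpi1, the isomerase of the next step, was among the steadiest members at 499 ± 143 CPM, with a highest cell 2.21 times the lowest.

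Phosphofructokinase, the committed and regulated step, was led by the liver isozyme. Pfkl (chromosome 10, 77986947 to 78010083) had a lowest level of 29.0 CPM in cell 3, a median of 124 and a highest of 688 in cell 12, with cell 8 at 547 and cell 7 at 213. Cells 8 and 12 thus stood above the remaining cells, and the highest was 23.7 times the lowest, the widest range of any glycolytic enzyme counted in all cells at 1 CPM or more. Pfkl made up a median of 57.1% of the family per kilobase, from 31.9% in cell 3 to 86.8% in cell 8, followed by the muscle isozyme Pfkm at 29.4% and the platelet isozyme Pfkp at 10.9%. Reads alone gave the reverse order of the last 2, at 13.6% and 23.1%. Pfkm measured 32.7 ± 16.1 and Pfkp 66.4 ± 32.3 CPM.

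Fructose 2,6-bisphosphate activates phosphofructokinase, and of its bifunctional enzymes Pfkfb4 exceeded Pfkfb3 per kilobase in 10 of 12 cells. Pfkfb4 ranged from 5.0 CPM in cell 5 over a median of 14.8 to 110 in cell 12, with cell 11 at 102 CPM and cells 1 and 6 above 60. Its share of this pair, which leaves out Pfkfb1 and Pfkfb2, had a median of 90.5%. Pfkfb3 had a median of 1.59 CPM and reached 29.5 in cell 4, 17.6 in cell 10 and 16.4 in cell 11. The share of Pfkfb4 was below 50% in cell 10, at 32.4% (interval 23.3% to 42.3%), and in cell 4, at 48.3%, where the interval of 40.8% to 55.7% included 50%.

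At the next steps a single isozyme took nearly all reads. Aldoa (chromosome 7, 126795234 to 126800751), the aldolase of muscle and most cells, measured 2042 ± 850 CPM, from 814 in cell 5 over a median of 2083 to 4120 in cell 8. The brain isozyme Aldoc was counted in cell 10 only, at 50 counts (exact Poisson interval 37.1 to 65.9), or 9.39 CPM. Tpi1, the triose phosphate isomerase, measured 1142 ± 532 CPM and was highest in cell 12 at 2439 CPM. Each remaining cell had at most 1629 CPM of it.

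The lower steps, which yield ATP and NADH, differed in their range over cells. Gapdh, the dehydrogenase that forms NADH, measured 2262 ± 601 CPM, from 1052 in cell 3 to 3155 in cell 12, and all cells but cell 3 lay within 1829 to 3155 CPM. Pgk1 (chromosome X, 106187100 to 106203699), the first ATP-forming kinase, was wider, with 127 CPM in cell 5, a median of 441 and 1187 in cell 12. Cells 8 and 4 followed it at 983 and 926 CPM. Pgam1, the mutase, measured 213 ± 98.2 CPM and Pkm, the pyruvate kinase of most tissues, 1843 ± 850 CPM. Counts per gene do not separate the M1 and M2 transcripts of Pkm.

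Enolase was represented by Eno1, at 1376 ± 602 CPM and a median of 99.3% of the pair per kilobase. The neuronal Eno2 had 0.364 CPM in cell 8 (2 counts), a median of 6.38 and 50.8 CPM in cell 12, followed by cell 10 at 33.2 CPM, and Eno1 was at its lowest share, 94.1%, in cell 10. Values of Eno1 carry an uncertainty, because its near-identical copy Eno1b was also counted in all 12 cells, at 472 to 2664 counts. Only uniquely mapped reads were kept, so reads of the pair may have been dropped or divided between them. Reads of Gapdh and Aldoa can be lost in a like way through processed copies. The copy Aldoart1 had 5 to 20 counts per cell, which does not show how many reads of Aldoa were dropped.

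Summed over the 15 enzymes, the glycolytic level had a median of 9493 CPM and a mean of 10411 ± 3539 CPM. It was lowest in cell 3 at 4904 CPM, followed by cell 5 at 6369, and highest in cell 12 at 16437, with cell 8 at 15526 and cell 9 at 14349. The highest cell was 3.35 times the lowest.

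The highest single value of the list per kilobase, 1990 CPM per kilobase, was that of Ldha in cell 8. Ldha (chromosome 7, 46841475 to 46855627), which makes the subunit of lactate dehydrogenase associated with pyruvate reduction, had 887 CPM in cell 3, a median of 2001 CPM and 6587 CPM in cell 8. Cells 9, 12 and 4 came next at 4225, 4006 and 3659 CPM, all well above the other 8 cells, which lay at 2202 CPM or below. Ldhb, the subunit that prevails in heart muscle, measured 30.7 ± 21.2 CPM. Ldha thus made up a median of 98.1% of the pair per kilobase, from 91.1% in cell 5 (interval 90.2% to 92.0%) to 99.7% in cell 8 (99.6% to 99.7%).

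Export of lactate varied more in its isozymes. Slc16a1, the gene of the widespread transporter MCT1, was counted in all cells from 6.6 CPM in cell 3 over a median of 36.3 to 128 in cell 9. Slc16a3, the gene of MCT4, which is typical of strongly glycolytic tissue, was at 0 in cells 3 and 7 and at 5.8 CPM or less in 6 others, but reached 87.7 CPM in cell 12, 23.6 in cell 8, 21.6 in cell 10 and 17.8 in cell 9. Per kilobase Slc16a1 took a median of 90.5% of the pair, with Slc16a3 above 50% in cells 10 and 12 alone. The share of Slc16a1 was 37.3% in cell 10 (interval 29.9% to 45.2%) and 46.9% in cell 12 (43.5% to 50.3%), the latter interval including 50%.

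The 4 pyruvate dehydrogenase kinases, which phosphorylate and switch off the complex, differed in which cells held them. Pdk3 was the main form, at 69.9 ± 35.0 CPM and a median of 61.4% of the family per kilobase, and was followed by Pdk2 at 15.1%. Pdk1 (chromosome 2, 71873224 to 71903858), a HIF target, ran from 0.18 CPM in cell 11, a single count, over a median of 12.7 to 81.7 CPM in cell 12. Cell 8 had 81.3 and cell 4 had 63.0 CPM, whereas the remaining cells had at most 28.7 CPM. Pdk4, which is known to respond to fatty acids, fasting and glucocorticoids, was at 0 in cell 12 and at 1.3, 1.5 and 2.5 CPM in cells 10, 9 and 8. Its highest levels were 76.5 CPM in cell 6 and 59.3 in cell 2, and cell 4 held both kinases, with Pdk4 at 37.9 CPM. The sum over the 4 kinases ranged from 48.8 CPM in cell 10 to 269 in cell 6.

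The complex itself was comparatively even as a sum, but not for each of its genes. The summed level of Pdha1, Pdhb, Dlat and Dld had a median of 559 CPM, with cell 1 lowest at 350 CPM and cell 9 highest at 791 CPM, 2.26 times the lowest. Pdhb, the beta subunit of the first enzyme, had the narrowest range of all members at 150 ± 32.6 CPM, 1.87 times from cell 12 to cell 6. Pdha1, the alpha subunit that the kinases phosphorylate, was at 113 ± 45.3 CPM. It ran from 23.9 CPM in cell 5 to 177 in cell 11, 7.43 times the lowest. Dlat measured 86.4 ± 40.6 CPM, from 30.1 in cell 3 to 175 in cell 9, 5.81 times the lowest. Dld, which also serves other dehydrogenase complexes, measured 181 ± 71.4 CPM. Dld was the only member of the 32 counted in all cells at a mean of 10 CPM or more that was highest in cell 3, at 300.3 CPM.

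**Figure D2:**
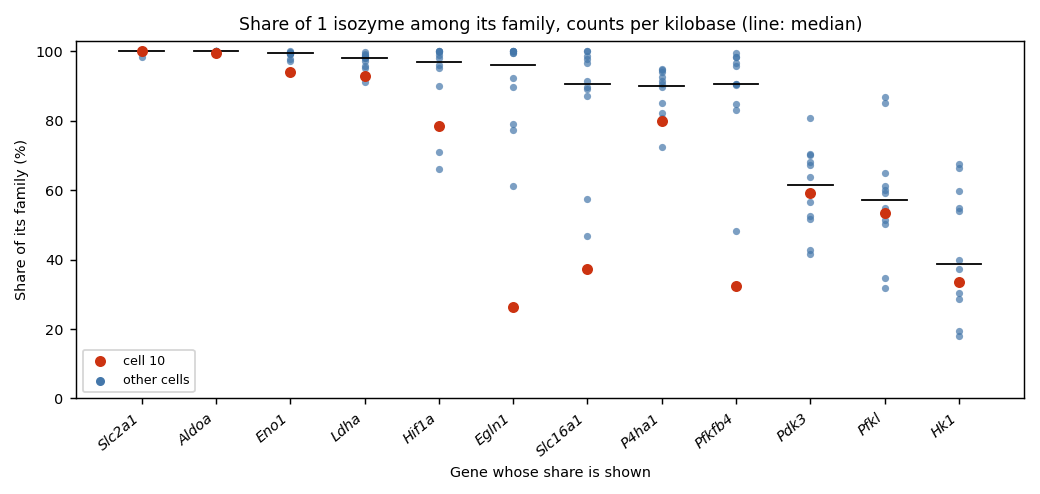
Share of isozymes among the listed members of their family, in percent of CPM per kilobase of exon, in each of the 12 cells. Points are cells, with cell 10 in red, and lines are medians; Ldha, Eno1 and Aldoa stay above 90% in all cells, while Hk1, Pfkl, Slc16a1, Pfkfb4 and Egln1 spread widely.

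Of the genes that sense oxygen, Hif1a (chromosome 12, 73901375 to 73947530), whose protein rather than transcript is the regulated step, was counted in all cells. Its level was 26.3 CPM in cell 6, 72.6 at the median and 529 in cell 10, where it was 3.31 times that of the next cell, cell 12 at 160 CPM. Epas1, the gene of HIF-2 alpha and a known endothelial gene, had 139 CPM in cell 10, 19.1 in cell 5, 12.8 in cell 6 and 6.5 CPM or less elsewhere, with 0 counts in cells 1, 8 and 11. Hif1a took a median of 97.0% of the pair per kilobase, and its lowest shares were 66.2% in cell 6, 70.8% in cell 5 and 78.3% in cell 10. Egln1, the main prolyl hydroxylase that marks HIF for degradation, measured 82.8 ± 37.4 CPM and was lowest in cell 10 at 19.7. Egln3, a hydroxylase that is itself a HIF target, had 0 counts in 4 cells and reached 40.9 CPM in cell 10, 32.5 in cell 12, 19.3 in cell 8 and 15.3 in cell 4. Cell 10 was thus the only one in which Egln3 exceeded Egln1 per kilobase, with Egln1 at 26.3% of the pair (interval 21.9% to 31.1%), beside 61.1% in cell 8. This pair leaves out Egln2. A count of 0 allows up to 3 counts, or 0.869 CPM in cell 1, and up to 3.69 counts by the exact two-sided interval.

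The 6 hypoxia targets fell into very different ranges. P4ha1, a subunit of the hydroxylase that stabilises collagen (chromosome 10, 59323296 to 59373304), measured 79.8 CPM in cell 5, a median of 371 and 1217 in cell 12, with cell 8 second at 750 CPM. P4ha2, a second subunit, was likewise highest in cell 12, at 321 CPM, and at 122 CPM or less elsewhere. Bnip3, a mediator of mitophagy (chromosome 7, 138890836 to 138909519), measured 9.2 CPM in cell 5, a median of 45.0 and 197 in cell 8, and cells 12 and 4 followed at 159 and 155 CPM. Its relative Bnip3l was steadier, at 175 ± 64.8 CPM, with 368 CPM in cell 12 and at most 216 elsewhere.

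Car9, the tumour-associated carbonic anhydrase and a sensitive HIF target, had 1, 3, 14 and 18 counts in cells 2, 4, 5 and 10 and none in the other 8, cells 8 and 12 included. Ndrg1, a stress-responsive gene, had 77.4 CPM in cell 10, 39.8 in cell 9 and 36.0 in cell 8, at most 8.0 CPM in 7 further cells, and no counts in cells 7 and 12. Cell 12, which led for 15 of the 32 more abundant members, thus held neither Car9 nor Ndrg1.

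Summed over the 6 genes, the hypoxia target level had a median of 717 CPM with an SD of 456, from 357 in cell 5 to 2066 in cell 12 and 1247 in cell 8. The collagen hydroxylase gene P4ha1 was the largest part of it in cells 12 and 8, at 1217 and 750 CPM. In cell 5 the largest part was Bnip3l, at 216 CPM, with P4ha1 at 79.8. The 5.79-fold range rested on cell 12, since it was 3.49-fold without that cell and 2.21-fold without cells 8 and 12. Over the 12 cells the sum moved with the glycolytic enzyme sum, at Pearson's r of 0.77 and Spearman's rho of 0.84. Without cells 8 and 12, the cells farthest from the median of the target sum, r was 0.51.

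**Figure D3:**
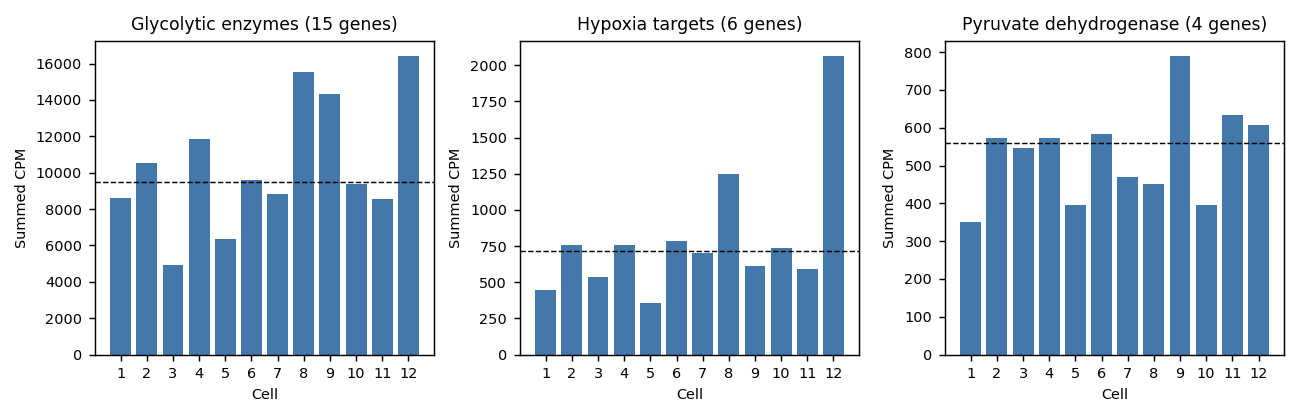
Summed levels of the glycolytic enzymes, the hypoxia targets and the pyruvate dehydrogenase complex, in CPM, with a bar for each of the 12 numbered cells and a dashed line at the median. Cells 12 and 8 lie high in the first panels, at 16437 and 15526 CPM for the enzymes and 2066 and 1247 CPM for the targets, while cells 3 and 5 lie low for the enzymes and the complex spans only 350 to 791 CPM.

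Variation over cells was described by a dispersion residual, the log10 of the squared coefficient of variation minus its running median over genes of like mean CPM. It could be measured for 38 members, and 32 of them (84.2%) lay above 0, beside 49.8% of 9701 genes. The median over members was 0.24, beside 0.00 over those genes, and it was 0.15 without cells 8 and 12. Epas1 (1.08), Hif1a (0.91), Pfkl (0.88), Slc16a3 (0.77), Slc2a1 (0.76) and Ndrg1 (0.75) had the largest residuals, and Epas1, Hif1a and Ndrg1 were highest in cell 10. Epas1 passed the mean of 5 CPM that the measure needs only through cell 10, and Pfkfb3 (0.35) only through cell 4. Pdhb (-0.49), Gapdh (-0.34), Gpi1 (-0.18), Pdk2 (-0.15), Pfkm (-0.12) and Pdha1 (-0.02) lay below 0. Of the 3 phosphofructokinases only Pfkl had a large residual, with Pfkp at 0.04, and 2 of the 4 genes of the complex lay below 0.

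The high cells recurred from gene to gene. Of the 32 members counted in all cells at a mean of 10 CPM or more, 15 were highest in cell 12 and 5 in cell 8. Eno2, among the 15, passed that mean only through cell 12. The share highest in either cell was thus 62.5%, beside 14.7% of the 7246 genes that met the same filter. Cell 8 led for Hk1, Aldoa, Eno1, Ldha and Bnip3. At the other end, 10 members were lowest in cell 3 and 8 in cell 5, together 56.2%, beside 22.6% of genes. Cell 3 was lowest for Hk2, Pfkl, Tpi1, Gapdh, Pkm and Ldha among others, and cell 5 for Slc2a1, Aldoa, Pgk1, Pgam1, Pdha1, Bnip3 and P4ha1. These cells were picked out after their values were seen.

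**Figure D4:**
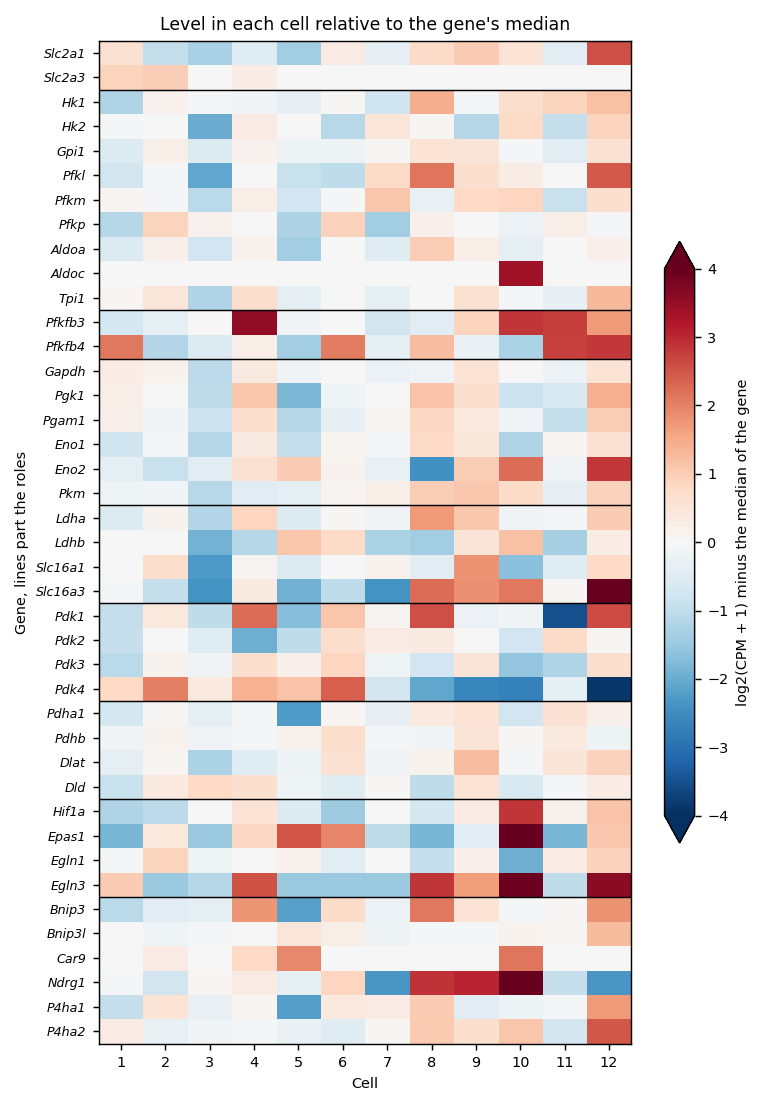
Level of each gene in each cell as log2(CPM + 1) relative to the gene's own median, on a colour scale in log2 units. Columns are cells and rows are genes ordered by role; cells 8 and 12 are high in most glycolytic rows, cells 3 and 5 are low, and cell 10 is high for Hif1a, Epas1, Ndrg1 and Aldoc.

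Members varied together more than genes in general. Over 496 pairs of the 32 members, the median Pearson r of log2(CPM + 1) was 0.32, beside 0.02 over all pairs of the 7246 genes. Among 14 glycolytic enzymes it was 0.54 over 91 pairs, and among the 4 abundant hypoxia targets 0.50. It was 0.19 among the 4 genes of the pyruvate dehydrogenase complex, 0.16 over the 56 pairs of that complex with glycolytic enzymes, and -0.04 among the kinases Pdk1, Pdk2 and Pdk3. The points share their libraries and their totals. Cell 12 carried much of the relation, since the median over members was 0.20 without it, and 0.23 without cells 8 and 12, where all pairs gave 0.03.

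Ldha, the enzyme that forms lactate, served as the reference for this pattern. An r of 0.6 or more with Ldha was found for 13 of 31 members (41.9%), beside 4.35% of 7245 genes, and an r of -0.6 or less for 0 members, beside 2.61% of genes. The limit of 0.6 was set after the values were seen. The 13 were Eno1 (0.89), Gpi1 (0.88), Aldoa (0.86), Pfkl (0.83), Pgk1 (0.81), Bnip3 (0.81), Pgam1 (0.78), Pkm (0.74), Tpi1 (0.71), Pdk1 (0.68), Gapdh (0.61), Dlat (0.61) and Slc2a1 (0.60). Eno1, Gpi1 and Aldoa held ranks 1, 3 and 5 among the 7245 genes, although Eno1b, the copy of Eno1, held rank 7. Without cells 8 and 12 the count was 12 of 32 members, beside 6.13% of genes. The set changed as well, since Pdk1 (0.46) and Slc2a1 (0.47) then lay below 0.6, while Slc16a1 (0.77) lay above it.

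Other members had r values near 0 with Ldha, among them Eno2 (-0.04), Ldhb (-0.02), Dld (-0.08), Pdhb (0.02), Hif1a (0.10), Egln1 (0.04) and Bnip3l (0.15). The glycolytic enzymes Hk1 (0.59), Pfkm (0.38), Hk2 (0.34) and Pfkp (0.30) also lay below the limit of 0.6. Among members not counted in all cells, and so not among the 31, Slc16a3 had an r of 0.73, Egln3 of 0.60, Ndrg1 of 0.29 and Pdk4 of -0.48, the last with a rho of -0.24. Cell 10, the highest cell for Hif1a, had 1799 CPM of Ldha and 43.4 of Bnip3, near their medians, and 242 of Pgk1, while it was the highest cell for Egln3, Ndrg1 and Car9 and second for P4ha2.

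**Figure D5:**
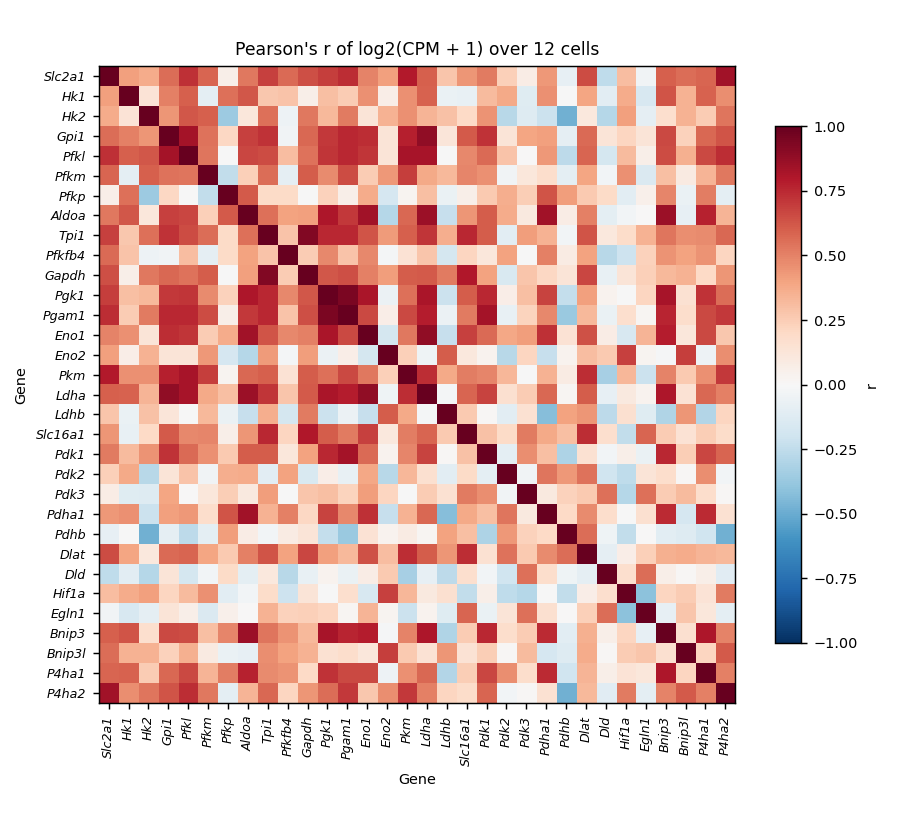
Pearson r of log2(CPM + 1) over 12 cells for each pair of the 32 members counted in all cells at a mean of 10 CPM or more, on a colour scale from -1 to 1. Genes are ordered by role; the block of glycolytic enzymes with Ldha, Pdk1 and Bnip3 is mostly positive, at a median of 0.54 among the enzymes, while genes of the pyruvate dehydrogenase complex and Bnip3l are mixed.

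HIF binds the core letters ACGTG or GCGTG, and the promoters of members were read for these letters. RefSeq windows of the 250 bases before a gene start, in GRCm38.p6, were found for 37 of 41 members (51 windows). Both strands were searched for either run of 5 letters, and CACGTG counts as 2 matches because it holds ACGTG on each strand. The windows below are those of Ldha and Bnip3, which had the most matches, of the transporter Slc2a1 and of Pgk1, and of Gpi1, which had none. Each is printed 5′ to 3′ on the strand of the gene, with matches in capitals.
Ldha, chr7:46845554-46845803, plus strand: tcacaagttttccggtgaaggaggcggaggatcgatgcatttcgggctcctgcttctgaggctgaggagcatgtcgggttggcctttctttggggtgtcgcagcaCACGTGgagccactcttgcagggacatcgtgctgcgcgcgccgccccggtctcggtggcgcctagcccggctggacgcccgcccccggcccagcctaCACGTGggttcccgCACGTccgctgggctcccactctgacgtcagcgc
Bnip3, chr7:138909507-138909756, minus strand: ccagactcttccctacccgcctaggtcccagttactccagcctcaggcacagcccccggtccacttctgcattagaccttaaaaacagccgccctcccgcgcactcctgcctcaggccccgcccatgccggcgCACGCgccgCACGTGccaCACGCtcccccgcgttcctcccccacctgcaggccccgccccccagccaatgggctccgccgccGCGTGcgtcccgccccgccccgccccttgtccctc
Slc2a1, chr4:119108495-119108744, plus strand: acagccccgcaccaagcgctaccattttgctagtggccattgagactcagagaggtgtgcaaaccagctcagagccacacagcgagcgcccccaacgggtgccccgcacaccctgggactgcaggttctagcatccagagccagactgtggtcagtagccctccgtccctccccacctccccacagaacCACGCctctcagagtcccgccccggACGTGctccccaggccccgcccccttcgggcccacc
Pgk1, chrX:106186850-106187099, plus strand: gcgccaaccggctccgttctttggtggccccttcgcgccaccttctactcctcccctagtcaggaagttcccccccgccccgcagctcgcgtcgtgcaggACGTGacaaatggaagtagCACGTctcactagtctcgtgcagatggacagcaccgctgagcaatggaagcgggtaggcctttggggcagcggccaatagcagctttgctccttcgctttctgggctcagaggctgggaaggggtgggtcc
Gpi1, chr7:34230337-34230586, minus strand: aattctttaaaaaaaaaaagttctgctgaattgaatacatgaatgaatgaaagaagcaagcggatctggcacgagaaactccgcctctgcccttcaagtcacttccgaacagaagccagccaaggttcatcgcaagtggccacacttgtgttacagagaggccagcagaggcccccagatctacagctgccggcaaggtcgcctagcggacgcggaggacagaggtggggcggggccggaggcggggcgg

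The printed windows of Ldha and Bnip3 held 5 matches each, with CACGTG at 2 places and 1 place respectively, and those of Slc2a1 and Pgk1 held 2 each. Ldha has a second window, at a later start, with 1 match and no CACGTG. At least 1 match was present in 40 of 51 member windows (78.4%), beside 38.6% of all 32841 windows and 59.5% of the windows of genes counted in all 12 cells at 10 CPM or more. The median GC content was 61.6% for members, 52.4% for all windows and 60.4% for the windows of expressed genes. For Ldha and the 13 genes above, 15 of 21 windows held a match (71.4%), and for the other members 25 of 30 (83.3%). Windows of the same gene can overlap, the limit behind this split was set after the values were seen, and the difference was not tested. Tpi1, Gpi1, Eno2, Dlat and Dld had no match in any window. A match is a run of letters and not a measured binding site.

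Further genes of the same pathways were taken from lists that are not part of the 41. Of 16 other glycolytic isoforms, Slc2a2, Hk3, Hkdc1, Pgk2 and Pklr, forms of liver, gut, blood cells or testis, had no count, and only Bpgm was counted in all cells. Bpgm, which makes 2,3-bisphosphoglycerate, reached 196 CPM in cell 10 against a median of 18.6. Eno3, the muscle enolase, reached 137 CPM in cell 8 against a median of 7.27. In gluconeogenesis, Fbp2 and G6pc had no count, Pck2 measured 56.4 ± 25.1 and G6pc3 28.8 ± 14.3 CPM in all cells, and Pcx was counted in 8 cells with the largest dispersion residual of its list, 0.29.

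The pentose phosphate pathway branches off after hexokinase. Its 7 genes had a summed level of 878 CPM in cell 12, the lowest, a median of 1563 and 2602 in cell 9, the highest. Taldo1, the transaldolase, set both ends of that sum, with 209 CPM in cell 12 and 2003 in cell 9. Taldo1 (982 ± 506 CPM) and Pgls (223 ± 70.4) took the most reads, and G6pdx, the entry enzyme, had the largest residual at 0.95, with 612 CPM in cell 7 and a median of 99.2. None of its 6 genes measured reached an r of 0.6 with Ldha, beside the 4.35% of all genes. Around pyruvate, the mitochondrial carrier gene Mpc2 measured 130 ± 31.4 CPM, Cs, the citrate synthase, 276 ± 98.8 CPM with an r of 0.71, and the phosphatase gene Pdp1 20.9 ± 17.0 CPM with the largest residual of its list, 0.25. The median residual of the 5 genes measured there was -0.42.

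Of 19 further HIF targets, 14 were counted in all cells, beside 53.1% of genes, and 14 of 17 measured had a residual above 0, beside 49.8%, with a median of 0.40. Their summed level was again highest in cell 12 at 8074 CPM, beside a median of 3363 and a lowest of 2206 in cell 6. Mif, a cytokine, measured 946 ± 418 and Lox, a collagen crosslinker, 528 ± 519 CPM, the latter with 1824 in cell 12 and 66.7 in cell 10. Adm, the gene of the vasodilator adrenomedullin, had the largest residual, 1.05, and was highest not in cells 8 or 12 but in cell 11, at 361 CPM against a median of 23.3. Of 14 measured, 3 had an r of 0.6 or more with Ldha, beside 4.35% of all genes.

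Among 10 other genes of oxygen sensing, Elob (666 ± 169 CPM) and Rbx1 (527 ± 115), parts of the ubiquitin ligase that removes HIF, took the most reads, while Arnt, the partner of HIF alpha subunits, had the largest residual at 0.21 and Hif3a had no count. Of 6 regulators of glycolysis, Trp53 measured 146 ± 65.6 CPM and Myc 78.6 ± 91.2, with Myc at 309 CPM in cell 8 against a median of 44.0 and a residual of 0.82. Mlxipl, a glucose-responsive factor of liver, had no count.

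Several measures of the cells moved with these sums, and their part in the results was not tested. The summed level of the 10 fibroblast markers was highest in cells 12 (6333 CPM) and 8 (2850), but was mainly that of Col1a1 (1941 and 896 CPM) and Col1a2 (3946 and 1763), with Dcn, Lum, Postn and Dpt at 0 in both. Pdgfra had 157 and 107 CPM there, and Tcf21 had 57.5 CPM in cell 12, 6.08 in cell 9 and none elsewhere. The r of the fibroblast sum over 12 cells was 0.61 with the glycolytic sum and 0.91 with the hypoxia target sum, and -0.06 and 0.25 without cells 8 and 12, so both relations rested on those cells. Tnnt2, the cardiac troponin T gene, had 86.6 and 59.1 CPM in cells 12 and 8 and at most 5.99 CPM elsewhere. It was the only one of the 10 cardiomyocyte markers with counts in these 2 cells, and the myosin and actin genes Myh6, Myh7, Myl7 and Actc1 were among the 7 at 0 in every cell. The mitochondrial share of counts had an r of -0.61 with the glycolytic sum, and -0.70 without cells 4 and 5. Total counts gave 0.42 and the summed level of 14 proliferation genes 0.35, the latter at 155 CPM in cell 3 and 6045 in cell 9. The number of genes detected fell into 2 ranges, 10022 to 10181 in cells 7, 8, 10, 11 and 12, with cells 8 and 12 the lowest, and 11216 to 11950 in the others. Its r was -0.32 with the glycolytic sum and -0.51 with the hypoxia target sum, and 0.13 and -0.16 without cells 8 and 12. With all cells thinned to the lowest total, the median sums and the ratios of the highest to the lowest cell stayed within 1.5 times of their values.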

How the data were processed

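Messenger RNA of 12 single cultured CPCs was measured with Smart-Seq v4 and Nextera XT libraries. The authors mapped reads to mm10 with STAR 2.5.2b and kept uniquely mapped ones, and the deposited values are raw counts, 1 column per cell, not normalized. The counting program, annotation and strand rule are not given in the sources used here, so close copies and overlapping genes may share or lose reads. All 12 cells passed the filter given in the methods (1000 genes or more, mitochondrial share up to 10%).

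From these counts, CPM over the total of the cell, shares of isozymes per kilobase of union exons and Pearson's r of log2(CPM + 1) were computed. Lengths and positions came from GENCODE vM21 on the build of mm10, in which 98.4% of symbols matched. The r values used genes counted in all cells at a mean of 10 CPM or more. The dispersion residual used a window of 201 genes, a mean of at least 5 CPM and 3 cells. A share needed 10 counts in its family, which means the listed members only. Intervals were exact (Clopper-Pearson or Poisson) at a level of 0.95. The lowest chi-square per degree of freedom between any of the 66 pairs of cells was 48.5, so no library appeared in duplicate. No doublet caller was run, since each cell was picked by hand.

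The members, lists and measures were chosen with earlier results of these data known. All 41 members are named. Of each further list, the 2 genes of highest mean CPM (not adjusted for length), the one of largest dispersion residual and those with no counts are named, except for genes that are not reported here. Alternatives changed detection limits, scaling, gene length, pseudocounts, depth and thresholds, or left out cells. Steps were tested on simulated data. The software was scipy 1.17.1, numpy 2.4.6 and pandas 2.3.3 under Python 3.11.15, with matplotlib 3.10.9 for figures.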

Additional observations from a re-analysis of the deposited data

How the results depend on the processing

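No paired analysis was possible because the 12 cells form 1 group and no test was made. Of 97 alternatives to 20 results, other than leaving out 1 cell, 94 stayed within 1 SD over the cells, pairs or genes behind the value, or for counts and ratios within 1.5 times, and 239 of 240 values with 1 cell left out did so. Within that SD, the median r between members still went from 0.32 to 0.20 without cell 12, and the median dispersion residual from 0.24 to 0.15 without cells 8 and 12. Without cells 8 and 12, an alternative chosen after seeing the data, the ratio of the highest to the lowest cell in hypoxia target sum went from 5.79 to 2.21, and with 1 cell left out it ranged from 3.49 to 5.79, the lowest without cell 12. The median share of Pdk3 went from 61.4% to 48.4% with counts of no length, and that of P4ha1 from 90.1% to 81.9% with the longest transcript, both by the length used. The number of members at an r of 0.6 or more with Ldha ranged from 10 to 14 with 1 cell left out, and was 18 at a limit of 0.5 (9.25% of genes), 9 at 0.7 (1.64%), 14 with ranks (4.62%) and 10 with median-of-ratios size factors (3.11%), which shifted single cells by -0.19 to 0.24 on the log2 scale. Depth limits single cells to levels above 0.527 to 0.869 CPM.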

Other observations

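Outside the members and the lists above, genes whose levels closely resembled those of Ldha over the 12 cells were the transcription factor gene Sp2 (r = 0.89, rank 2 of 7245), the spliceosome gene Snrpd3 (0.87, rank 4), the prolyl endopeptidase gene Prep (0.86, rank 6) and the mitochondrial ribosome gene Mrpl15 (0.85, rank 9). Without cells 8 and 12 these values were 0.77, 0.77, 0.79 and 0.76. They were chosen by rank after the values were seen, and Sp2 had a mean of only 14.2 CPM.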
